A study of Sus scrofa with 5 samples.

Results

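Collagen genes were described in large and small ovarian follicles of the pig. Members were the protein-coding genes whose symbol is COL, a type number, A and a chain number. The files held 43 such genes among 30822 genes listed, 20663 of them protein-coding. All 43 had an entry, by gene identifier, in RefSeq's table for Sscrofa11.1, the assembly of the files. The rule itself uses symbol and biotype and no measured value. The study compared RNA of 3 large follicle libraries with RNA of 2 small follicle libraries, all from female pigs of the Indian Ghoongroo breed, with no treatment named beyond follicle size. The labels call the replicates biological, but the sources used here do not give the age, cycle stage, follicle diameter or number of follicles per library, or say whether replicates came from separate animals. The p-values therefore reflect the spread among 5 libraries and no more.

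Collagens are secreted proteins of 3 chains wound into a triple helix. Fibrillar collagens form the tensile fibrils of connective tissue, collagen IV forms the network of basement membranes, and FACIT collagens (fibril-associated, with interrupted helices) sit on the surface of fibrils. Collagen VI builds beaded microfibrils between cells and the matrix. In the ovary, a basement membrane separates the granulosa cells from the theca, and fibrillar collagen fills the theca and the surrounding stroma. A follicle grows within this matrix, which is remodelled as the antrum expands. In cattle, the collagen IV chains of the follicular basement membrane are known to change as follicles grow.

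Levels are given as FPKM, the authors' count of fragments per length of gene and per size of library, a scale on which genes can be compared per length. The step that 1 fragment makes in FPKM gave library totals of 9523739 to 11507527 fragments. At that depth 3 fragments are worth 0.130 to 0.158 FPKM if the gene is 2000 bases long. Libraries of 1 group differed by more than sampling noise, with a chi-square per degree of freedom of at least 28.5 over genes. All 11 granulosa and all 9 theca markers listed reached the level needed for testing, as did all 12 endothelial, 9 smooth muscle and 9 myeloid markers, so these libraries hold several cell types. In such bulk RNA, fewer cells of a type and less RNA per cell cannot be told apart.

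Collagen genes made up between 2.54% and 4.02% of all fragments in large follicles, against 2.995% and 2.82% in small follicles. The Wilson 95% intervals, which cover counting error only, were 2.53% to 2.55% at the lowest library and 4.005% to 4.03% at the highest. Large follicle replicate 2 was the highest library, and large follicle replicate 1 the lowest. The small follicle libraries lay between the large ones. The summed FPKM of the 43 genes averaged 5831 ± 1297 in large follicles (SD, n = 3) and 5215 ± 223 in small follicles (SD, n = 2). All sums and shares given here are over the 43 genes. They leave out collagen rows without such a symbol, among them the alpha-1(VI) chain (LOC100623720), at 283 to 583 FPKM.

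A gene was tested if it reached an FPKM of 1 in at least 2 libraries, which 31 of the 43 collagen genes and 13087 genes in all did. Large and small follicles were compared by limma on log2(FPKM + 1) with no other covariate, and p values were adjusted by Benjamini-Hochberg over all 13087 genes. Differences are large minus small on this scale, with the SE after ±, and a gene was called at an adjusted p under 0.05. The scale understates the change of low genes. Of the 31 collagen genes tested, 1 was called, COL22A1, which was lower in large follicles. Among all genes tested 128, or 0.978%, were called, 70 (0.535%) higher and 58 (0.443%) lower in large follicles. With every library scaled to 1 common FPKM sum the split was 66 higher and 86 lower, and the median difference of all genes was -0.19, against -0.08 as deposited.

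An unadjusted limma p under 0.05 was reached by 5 of the 31 collagen genes, 16.1%, beside 10.4% of all genes tested. The groups did not overlap for 10 of the 31, which is 32.3%, beside 26.1% of all genes tested. Of these 10, 8 were higher and 2 lower in large follicles, while among all genes tested 10.9% were higher and 15.2% lower without overlap. The 10 include COL22A1 and COL9A3, which passed the filter only through the group where they are high. COL6A5, COL21A1 and COL8A2 would not have passed on the small follicle libraries alone, where they are lower. There they had 1.03 and 0.985, 0.683 and 1.17, and 0.961 and 1.27 FPKM. The median difference of the 31 collagen genes was 0.12, beside -0.08 for all genes tested, and 20 of the 31, or 64.5%, had a value above 0, beside 39.9% of all genes tested. With a common FPKM sum the collagen median was -0.0058, beside -0.19 for all genes. Without small follicle replicate 1 it was -0.03, beside -0.26 for all genes. Without large follicle replicate 1 the collagen median was 0.32, beside -0.105 for all genes.

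**Figure D1:**
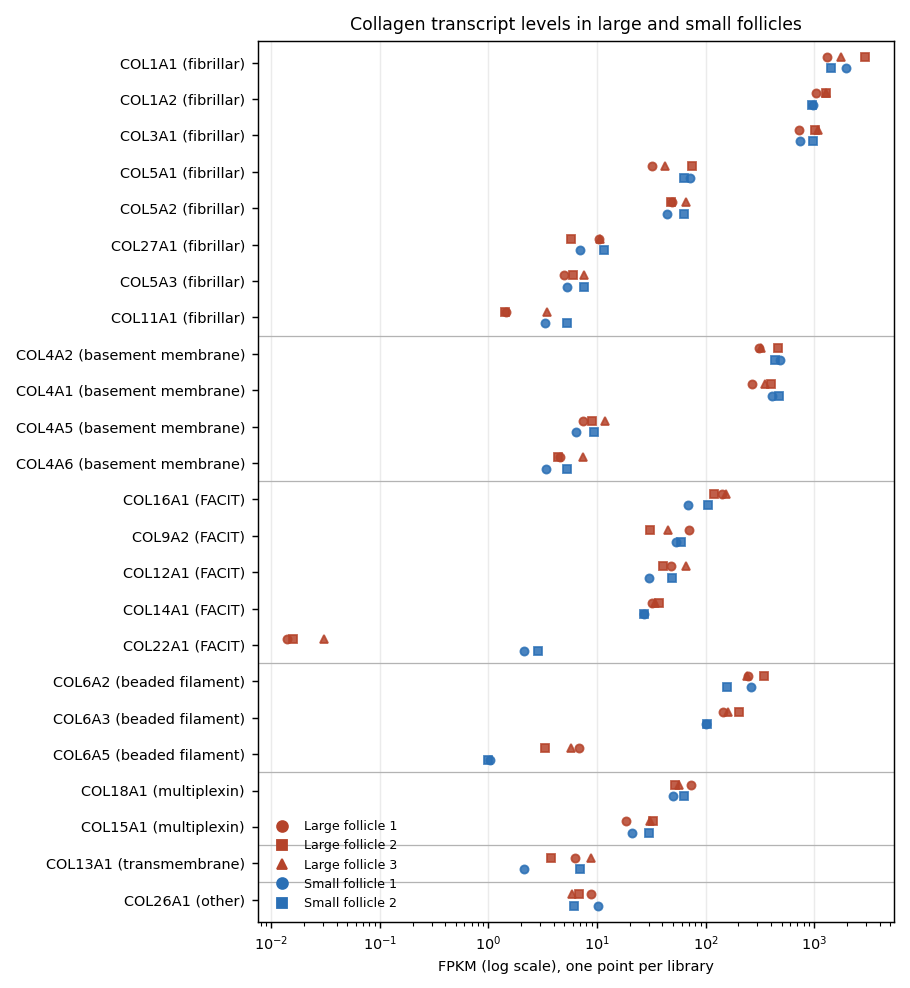
FPKM on a log axis of the 24 collagen genes with a mean FPKM of at least 5 or an unadjusted limma p under 0.05, grouped by class, with 1 point per library: large follicles in red in the upper row of each gene, small follicles in blue in the lower row. COL22A1 has its 3 large follicle points far to the left of its 2 small follicle points, and COL6A5 has them to the right, while most other genes interleave.

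Fibrillar collagens held most of the collagen RNA. Their summed FPKM averaged 4269 ± 1110.2 in large follicles (SD, n = 3) and 3668 ± 225 in small follicles (SD, n = 2). They took 69.4% to 75.3% of the collagen FPKM of a library, a total that leaves out the alpha-1(VI) chain row. The genes of collagen I and III, the main fibril formers of soft tissue, alone took 66.3% to 73.3%. Of 11 fibrillar genes 9 were tested, with 5 values higher and 4 lower in large follicles, a median difference of 0.02 and 0 calls by limma or limma voom. An unadjusted limma p under 0.05 was reached by 1 of the 9, beside 10.4% of all genes tested. The sign of COL1A1, COL3A1, COL5A2, COL27A1 and COL5A3 turned under at least 1 other scaling of the libraries.

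COL1A1 (chromosome 12, 26379087 to 26397180), the alpha-1 chain of collagen I, had 1309.6, 2963 and 1747 FPKM in large follicle replicates 1, 2 and 3, against 1965 and 1437 FPKM in small follicle replicates 1 and 2. Large follicle replicate 2 was the highest and replicate 1 the lowest, with both small follicle libraries between them. It ranked between 45 and 101 among all genes listed. COL1A2 (chromosome 9, 74174484 to 74210407), the alpha-2 chain that pairs with it, had 1042, 1279 and 1279.7 FPKM in large follicles, against 983 and 949 FPKM in small follicles. These groups did not overlap, but the difference of 0.31 ± 0.26 was within the error of the fit (limma adjusted p = 0.791, 95% interval -0.28 to 0.89). COL3A1 (chromosome 15, 93556914 to 93595678), whose chains form collagen III, had 721, 1010.4 and 1082 FPKM in large follicles, against 746 and 969 FPKM in small follicles, with full overlap. The differences of COL1A1 and COL3A1 were 0.17 ± 0.39 and 0.12 ± 0.29 (limma adjusted p = 0.936 and 0.938). Their 95% intervals, -0.70 to 1.04 and -0.52 to 0.76, leave room for differences of either sign.

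Collagen V, which nucleates collagen I fibrils, was measured through 3 genes. COL5A1, its alpha-1 chain, had 31.8, 75.5 and 42.7 FPKM in large follicles, against 71.4 and 63.9 FPKM in small follicles. Large follicle replicate 2 exceeded both small follicle libraries and the other large ones were below them (difference -0.52 ± 0.32, limma adjusted p = 0.678). COL5A2, its alpha-2 chain, had 48.6, 48.5 and 65.99 FPKM in large follicles, against 44.04 and 62.99 FPKM in small follicles. COL5A3, its less common alpha-3 chain, had 4.999, 5.97 and 7.63 FPKM in large follicles, against 5.27 and 7.66 FPKM in small follicles. Both overlapped, with differences of 0.03 ± 0.24 and -0.05 ± 0.30 (limma adjusted p = 0.984 and 0.980).

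The minor fibrillar genes were low. COL27A1, known from cartilage, had 10.5, 5.80 and 10.8 FPKM in large follicles, against 6.97 and 11.6 FPKM in small follicles, a difference of -0.04 ± 0.34 (limma adjusted p = 0.983). COL11A1, a chain that associates with collagen II and V fibrils, had 1.44, 1.43 and 3.45 FPKM in large follicles, against 3.30 and 5.31 FPKM in small follicles. Large follicle replicate 3 lay just above the lower small follicle library, and the other large follicle libraries lay below both. Its difference of -0.81 ± 0.36 had an unadjusted p of 0.0486 and a limma adjusted p of 0.472. COL2A1, the cartilage collagen, had 1.90 to 2.42 FPKM in large follicles and 2.07 and 2.21 in small follicles (difference 0.02 ± 0.27, limma adjusted p = 0.990). COL24A1 and COL11A2 stayed under the level for testing, with at most 0.425 and 0.136 FPKM.

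The summed level of basement membrane collagen averaged 724 ± 149 FPKM in large follicles (SD, n = 3) and 918 ± 8.66 FPKM in small follicles (SD, n = 2), at 591, 885 and 696 FPKM in the large follicle libraries, against 912 and 924 FPKM in the small follicle libraries. The groups did not overlap, although large follicle replicate 2 lay close below the small follicle libraries. Its share of the collagen FPKM was 12.1% to 12.9% in large follicles, against 16.97% and 18.3% in small follicles. Nearly all of it came from COL4A1 and COL4A2, the ubiquitous chains of collagen IV. Of 6 genes 5 were tested, with 2 values higher and 3 lower, a median difference of -0.36 and 0 calls by limma (0 at an unadjusted p under 0.05 as well, and 0 by limma voom).

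COL4A1 (chromosome 11, 76858332 to 76997409, minus strand) had 269, 404 and 353 FPKM in large follicles, against 412 and 469.9 FPKM in small follicles. COL4A2 (chromosome 11, 76996885 to 77161617, plus strand) had 309, 467 and 321 FPKM in large follicles, against 488 and 435 FPKM in small follicles. COL4A1 did not overlap between the groups, by a narrow margin, and for COL4A2 large follicle replicate 2 reached into the small follicle range. Their differences of -0.38 ± 0.25 and -0.36 ± 0.25 were within the error of the fit (limma adjusted p = 0.692 and 0.722), at 95% intervals of -0.93 to 0.17 and -0.93 to 0.21. This pair is annotated head to head on opposite strands with 525 shared bases, and the sources used here do not give whether the authors' counting used the strand, although the kit was stranded.

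COL4A5 and COL4A6, X-linked chains of another collagen IV network, had values higher in large follicles. COL4A5 had 7.37, 9.03 and 11.8 FPKM in large follicles, against 6.47 and 9.45 FPKM in small follicles. COL4A6 had 4.601, 4.38 and 7.45 FPKM in large follicles, against 3.42 and 5.29 FPKM in small follicles. Both overlapped, with differences of 0.21 ± 0.29 and 0.27 ± 0.32 (limma adjusted p = 0.884 and 0.869). COL4A4, a chain of the network found in kidney glomeruli, had 1.05, 0.477 and 1.32 FPKM in large follicles, against 1.25 and 3.19 FPKM in small follicles, where small follicle replicate 2 stood above all others (difference -0.68 ± 0.34, limma adjusted p = 0.551). Its partner COL4A3, annotated head to head with it with 663 shared bases, was not tested, with 0.187 to 0.447 FPKM in large follicles and 0.172 and 0.699 FPKM in small follicles. COL4A4 also overlaps RHBDD1 on the opposite strand over 26924 bases, and RHBDD1 had a mean of 5.56 FPKM.

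FACIT collagens held the one called gene. Of 10 genes 7 were tested, with 5 values higher and 2 lower in large follicles and a median difference of 0.37. Their summed FPKM averaged 277 ± 39.8 in large follicles (SD, n = 3) and 215 ± 44.1 in small follicles (SD, n = 2). The groups did not overlap for 5 of the 7, beside 26.1% of all genes tested. These 5 include COL22A1 and COL9A3, which passed the filter only through the group where they are high. COL21A1, also among them, would not have passed on the small follicle libraries alone, where it is lower.

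COL22A1 (chromosome 4, 4069045 to 4313198, plus strand) encodes collagen XXII, a FACIT known in mouse and human from tissue junctions such as that of muscle and tendon. It had 0.0139, 0.0160 and 0.0305 FPKM in large follicles, against 2.14 and 2.86 FPKM in small follicles. These values rest on 1, 1 and 2 fragments in the large follicle libraries, against 128 and 180 in the small follicle libraries. Every large follicle library was below the 0.0416 to 0.0479 FPKM that 3 fragments in this gene give there. Pooled over libraries, the level in large follicles was 0.00795 of that in small follicles, or 126-fold lower, with an exact 95% counting interval of 48.6 to 465. On the log2(FPKM + 1) scale COL22A1 fell by 1.77 ± 0.23 (limma adjusted p = 0.00872, 95% interval of the difference -2.29 to -1.25), lower in 3 of 3 large follicle libraries than in either small follicle library.

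The gene passed the filter on low values only through the small follicle libraries, where it is high. With no filter it was still called (limma adjusted p = 0.0280), as it was by limma voom on the worked-back fragments, where the difference was -6.55 ± 0.56 (adjusted p = 0.00312). Leaving out large follicle replicate 1 ended the call, with a limma adjusted p of 0.0708 and a difference of -1.77. Without each of the other libraries in turn the adjusted p ranged from 0.00223 to 0.0429. No annotated gene overlaps COL22A1. Its nearest neighbours on each side, LOC102165464 and FAM135B, were listed at 0 in all 5 libraries.

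**Figure D2:**
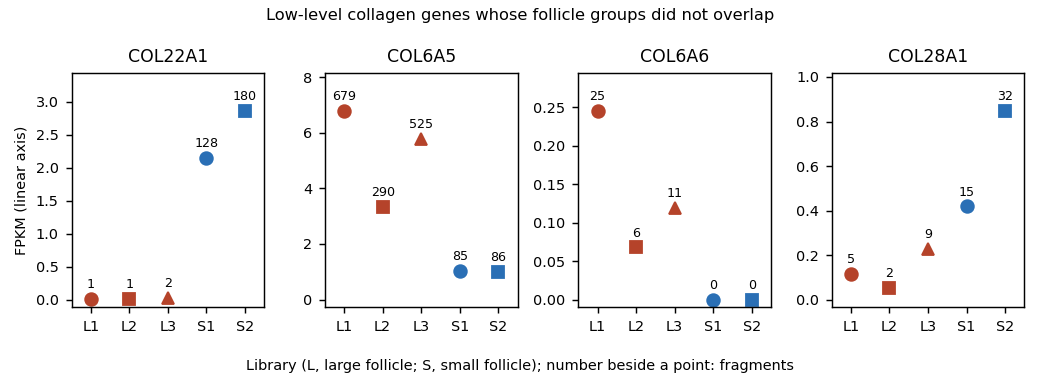
FPKM on linear axes, starting near 0, of 4 collagen genes with low levels and no overlap between the groups, with 1 point per library and the number of fragments behind it printed beside the point. The 4 are a choice among such genes. COL21A1, COL9A3, COL8A2 and COL19A1 were also low and without overlap and are not shown. COL22A1 has at most 2 fragments in any large follicle library (red), against 128 and 180 in the small follicle libraries (blue); COL6A5 and COL6A6 are higher in every large follicle library, and COL28A1 is lower.

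COL16A1 (chromosome 6, 88177798 to 88243718), a FACIT of many connective tissues, had 141, 119 and 155 FPKM in large follicles, against 69.4 and 105 FPKM in small follicles. All large follicle libraries were above both small ones, and the difference was 0.68 ± 0.24 with an unadjusted p of 0.0173 and a limma adjusted p of 0.315. COL14A1, which binds collagen I fibrils, had 31.9, 37.5 and 34.4 FPKM in large follicles, against 26.96 and 27.04 FPKM in small follicles. It did not overlap either, at a difference of 0.34 ± 0.20 (limma adjusted p = 0.645). COL12A1, a relative of COL14A1 found in dense connective tissue, had 48.2, 40.8 and 66.4 FPKM in large follicles, against 29.96 and 48.9 FPKM in small follicles, a difference of 0.40 ± 0.28 with overlap (limma adjusted p = 0.720). COL9A2, a chain of the collagen IX of cartilage, had 69.7, 31.02 and 45.5 FPKM in large follicles, against 53.7 and 59.6 FPKM in small follicles (difference -0.29 ± 0.31, limma adjusted p = 0.844).

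The level of COL9A2 was not matched by its partner chains of collagen IX. COL9A3 had 1.22, 0.702 and 1.34 FPKM in large follicles, against 0.605 and 0.599 FPKM in small follicles (difference 0.37 ± 0.25, limma adjusted p = 0.714), and COL9A1 was listed at 0 in all 5 libraries. COL21A1, a small FACIT of vessel walls, had 2.01, 1.27 and 1.59 FPKM in large follicles, against 0.683 and 1.17 FPKM in small follicles (difference 0.45 ± 0.27, limma adjusted p = 0.662). COL9A3 and COL21A1 are the remaining tested FACIT genes without overlap. COL9A3 passed the filter only through large follicle replicates 1 and 3, in the group where it is higher, so its lack of overlap is no separate evidence. The same holds for COL21A1, which needed the large follicle libraries to pass. COL20A1 and COL19A1 were not tested, at most at 1.16 and 0.0901 FPKM. COL19A1 rested on 6, 7 and 11 fragments in large follicles, against 1 and 4 in small follicles, and did not overlap.

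**Figure D3:**
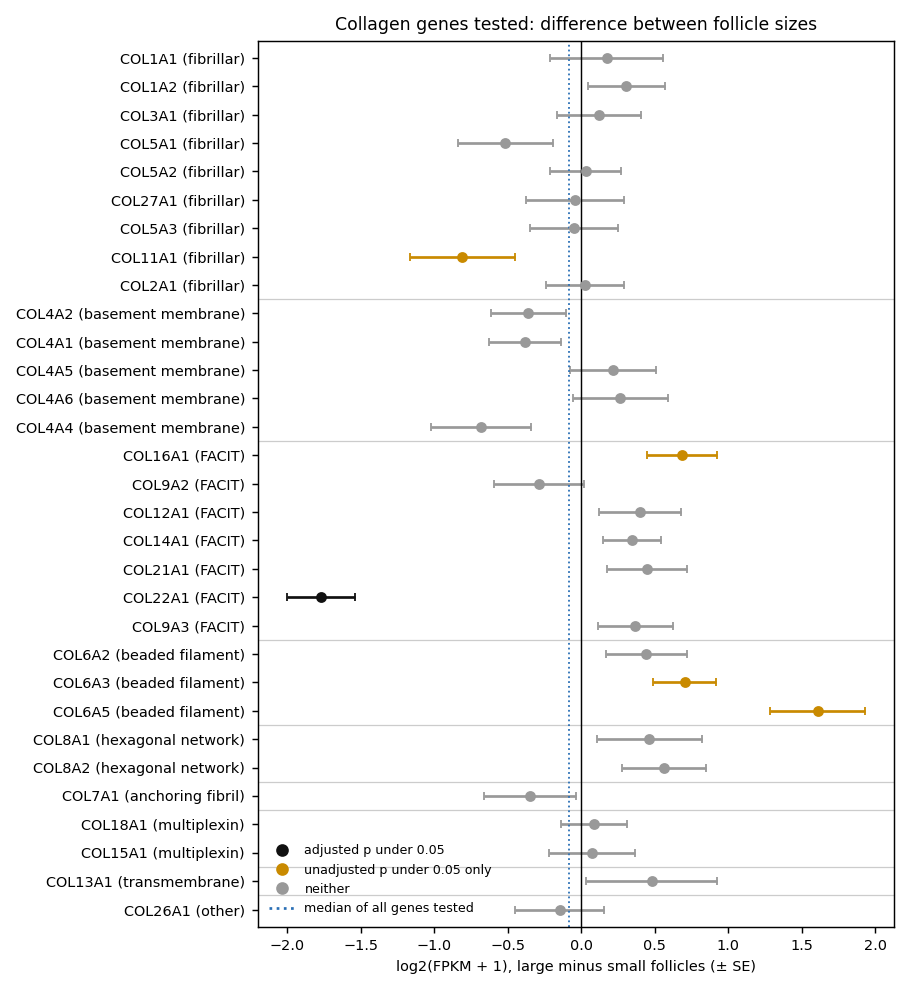
Difference on the log2(FPKM + 1) scale, large minus small follicles, with the SE as bars, for the 31 collagen genes tested, grouped by class; the dotted line is the median of all genes tested, -0.08. COL22A1 at -1.77 is the one gene past the adjusted threshold (black), COL6A5, COL6A3, COL16A1 and COL11A1 pass at an unadjusted p only (ochre), and the remaining 26 are in grey.

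The 4 beaded filament genes of collagen VI had higher group means in large follicles, although the libraries overlapped for COL6A2. The summed FPKM of the 4 genes, without the alpha-1(VI) chain row, averaged 452 ± 85.9 in large follicles (SD, n = 3) and 311 ± 69.9 in small follicles (SD, n = 2). All 3 genes tested had values higher in large follicles, with a median difference of 0.70 and 0 called by limma or limma voom. An unadjusted limma p under 0.05 was reached by 2 of the 3, beside 10.4% of all genes tested.

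COL6A5 (chromosome 13, 2029543 to 2174404, minus strand), a chain that can take the place of the alpha-3 chain in collagen VI, had 6.78, 3.34 and 5.77 FPKM in large follicles, against 1.03 and 0.985 FPKM in small follicles. The fragments were 679, 290 and 525 in large follicles, against 85 and 86 in small follicles. Even the lowest large follicle library was well above both small follicle libraries, which were almost equal. The gene needed the large follicle libraries to pass the filter, as small follicle replicate 2 was below 1 FPKM. The fold of the means, large over small, was 5.27, and the difference of 1.61 ± 0.32 had an unadjusted p of 0.000663 and missed the threshold at a limma adjusted p of 0.0595. Other settings took it past the threshold, at limma adjusted p values of 0.0262 with library weights, 0.0166 with quantile normalization and 0.0135 under median-of-ratios scaling. Without large follicle replicate 2 the adjusted p was 0.00579. Without the other libraries in turn it ranged from 0.0525 to 0.259, and over the 16 alternatives that kept the gene in the fit from 0.00579 to 0.259.

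COL6A6 (chromosome 13, 1817475 to 1985968, minus strand), a close relative of COL6A5 and near to it on the chromosome, was not tested because it was low. It had 25, 6 and 11 fragments in large follicles, or 0.245, 0.0678 and 0.119 FPKM, against 0 and 0 fragments in small follicles. Set against a floor of 3 fragments over both small follicle libraries together, the pooled level was at least 8.57-fold higher in large follicles, a bound for counting error only. A fit with no filter gave a limma adjusted p of 0.469. The next gene of this cluster, annotated as an alpha-4(VI) chain-like gene (LOC100517188), had 0.753, 0.571 and 0.608 FPKM in large follicles, against 0.610 and 0.885 FPKM in small follicles, and overlapped. The same strand carries COL6A6, COL6A5 and this gene in that order along the assembly, with 43574 bases between COL6A6 and COL6A5.

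COL6A3 (chromosome 15, 137011549 to 137103687), the large alpha-3 chain of the common collagen VI, had 144, 201 and 159 FPKM in large follicles, against 99.9 and 104 FPKM in small follicles. All large follicle libraries were above both small ones, at a difference of 0.70 ± 0.22 with an unadjusted p of 0.00903 and a limma adjusted p of 0.233. COL6A2, the alpha-2 chain, lies on an unplaced scaffold and had 248, 346 and 241 FPKM in large follicles, against 259 and 157 FPKM in small follicles. It overlapped (difference 0.44 ± 0.28, limma adjusted p = 0.681). The alpha-1 chain has no COL6A1 symbol in the files, and the row annotated as collagen alpha-1(VI) chain (LOC100623720, chromosome 13, 208295245 to 208321789) stands outside the 43 genes. It had 394, 583 and 426 FPKM in large follicles, against 408 and 283 FPKM in small follicles (difference 0.44 ± 0.27, limma adjusted p = 0.669).

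A second row, LOC110259172, annotated as a transcribed pseudogene similar to the alpha-1(VI) chain on an unplaced scaffold, had 85.7, 76.4 and 53.8 FPKM in large follicles, against 33.7 and 23.5 FPKM in small follicles. Its groups did not overlap (difference 1.298 ± 0.26, limma adjusted p = 0.0580). The sources used here do not give how fragments shared by such near-identical rows were counted, so the level of either row is uncertain. In all, 37 rows outside the 43 genes are described as collagen chains, of which 4 were tested and 8 were listed at 0 in every library. The most abundant beside the alpha-1(VI) row was LOC102158401, annotated as similar to the alpha-1(I) chain, at 141, 181 and 127 FPKM in large follicles, against 145 and 129.6 FPKM in small follicles.

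The remaining classes showed 0 calls by limma, 0 genes at an unadjusted p under 0.05 and 0 calls by limma voom. Multiplexins are basement membrane-associated collagens that carry anti-angiogenic fragments. COL18A1, the precursor of endostatin, had 72.6, 51.9 and 56.5 FPKM in large follicles, against 50.1 and 62.97 FPKM in small follicles (difference 0.09 ± 0.22, limma adjusted p = 0.943). COL15A1, its relative in the zone beneath basement membranes, had 18.4, 33.1 and 30.6 FPKM in large follicles, against 21.1 and 30.02 FPKM in small follicles (difference 0.07 ± 0.29, limma adjusted p = 0.965). Both overlapped, and their 95% intervals of -0.42 to 0.59 and -0.58 to 0.72 bound the differences on either side. With a common FPKM sum both signs turned.

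COL13A1, a transmembrane collagen, had 6.31, 3.74 and 8.76 FPKM in large follicles, against 2.13 and 6.98 FPKM in small follicles (difference 0.48 ± 0.44, limma adjusted p = 0.812). COL26A1, first described in mouse testis and ovary, had 8.74, 6.86 and 5.91 FPKM in large follicles, against 10.2 and 6.16 FPKM in small follicles (difference -0.15 ± 0.30, limma adjusted p = 0.931). In both genes the groups interleaved. The short-chain network collagens COL8A1 and COL8A2, known from vessel walls and the cornea, had differences of 0.46 ± 0.36 and 0.56 ± 0.29 (limma adjusted p = 0.755 and 0.562). COL8A1 overlapped, at 2.33, 1.87 and 4.05 FPKM in large follicles, against 0.999 and 2.49 FPKM in small follicles. COL8A2 did not overlap, at 1.47 to 2.78 FPKM in large follicles, against 0.961 and 1.27 FPKM in small follicles. It would not have passed the filter on the small follicle libraries alone, where it is lower. COL7A1, the anchoring fibril collagen of skin, had 2.46, 1.89 and 2.67 FPKM in large follicles, against 2.34 and 4.35 FPKM in small follicles (difference -0.35 ± 0.31, limma adjusted p = 0.803).

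COL28A1, a collagen of peripheral nerve, was not tested and had 5, 2 and 9 fragments in large follicles, against 15 and 32 in small follicles. Its pooled level was 4.80-fold lower in large follicles, with an exact 95% counting interval of 2.67 to 9.07, and the groups did not overlap. A fit with no filter gave a limma adjusted p of 0.304. The transmembrane genes COL23A1, COL17A1 and COL25A1 reached at most 1.16, 0.533 and 0.0930 FPKM, and COL10A1, the collagen of hypertrophic cartilage, at most 0.0471 FPKM. With COL24A1, COL11A2, COL4A3, COL9A1, COL19A1, COL20A1, COL6A6 and COL28A1 these make up the 12 members that were not tested.

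Ratios between chains within a library do not depend on how libraries are scaled to each other. The 15 ratios computed were chosen after values had been seen and were not tested. COL1A1 over COL1A2 was 1.26, 2.32 and 1.37 in large follicles, against 1.998 and 1.51 in small follicles. COL5A1 over COL5A2 was 0.654, 1.56 and 0.647 in large follicles, against 1.62 and 1.01 in small follicles. Both ratios were highest in large follicle replicate 2 and small follicle replicate 1, the libraries in which the fewest genes reached an FPKM of 1 (11784 and 12101, against 12489 to 13064 in the others). Whether a property of these libraries plays a part in the ratios was not tested.

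The groups did not overlap in 5 of the 15 ratios. The 26.1% of all genes tested without overlap is a share of single genes, so it is no background for chosen ratios. Some ratios share a chain, so they are not separate observations. COL6A3 over COL4A1, which sets the microfibril against the basement membrane, was 0.534, 0.498 and 0.450 in large follicles, against 0.242 and 0.221 in small follicles. COL6A3 was higher and COL4A1 lower in large follicles, each without overlap, so this ratio could not overlap and adds no separate evidence. COL5A1 over COL1A1 was 0.0243, 0.0255 and 0.0244 in large follicles, against 0.0363 and 0.0444 in small follicles. COL4A5 over COL4A1 was 0.0275, 0.0224 and 0.0334 in large follicles, against 0.0157 and 0.0201 in small follicles. COL6A5 over COL6A3 was 0.0472, 0.0166 and 0.0363 in large follicles, against 0.0103 and 0.00950 in small follicles. COL4A4 over COL4A3 was 2.55 to 3.56 in large follicles, against 7.24 and 4.57 in small follicles. This last ratio is uncertain, as COL4A3 rested on 29, 16 and 40 fragments in large follicles, against 14 and 60 in small follicles. Among the ratios with overlap, COL4A1 over COL4A2 stayed between 0.844 and 1.10 and the alpha-1(VI) row over COL6A2 between 1.57 and 1.80 in all 5 libraries.

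**Figure D4:**
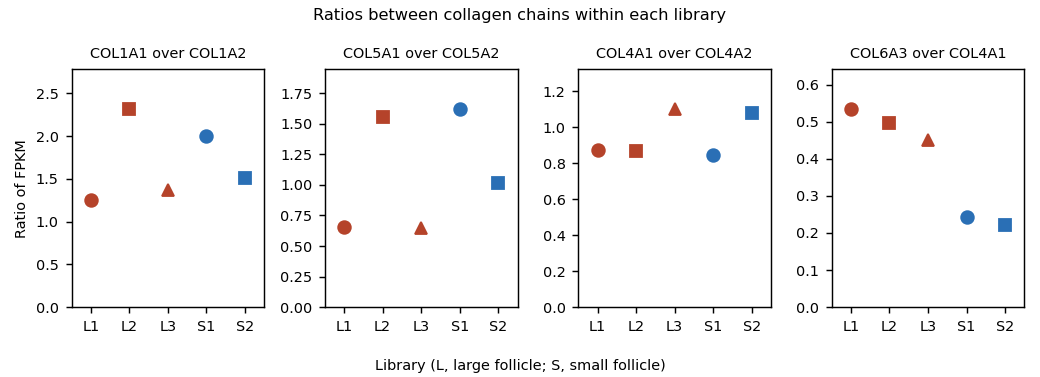
Ratio of FPKM between collagen chains in each library, large follicles in red and small follicles in blue, on linear axes from 0. COL1A1 over COL1A2 and COL5A1 over COL5A2 are highest in large follicle replicate 2 and small follicle replicate 1, COL4A1 over COL4A2 stays between 0.844 and 1.10, and COL6A3 over COL4A1 is 0.450 to 0.534 in large follicles, against 0.242 and 0.221 in small follicles.

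Genes that fold, cut, cross-link, bind or break down collagen were given by 5 lists. Of 90 genes listed 71 were tested, and 1 of the 71 was called by limma, the cross-linking enzyme LOXL4, beside 0.978% of all genes tested. LOXL4, a lysyl oxidase-like enzyme, had 6.91, 5.18 and 7.39 FPKM in large follicles, against 23.1 and 23.1 FPKM in small follicles. It fell by 1.70 ± 0.25 (limma adjusted p = 0.0150), a fold of 3.56 of small over large means, and was lower in 3 of 3 large follicle libraries. The call was lost without large follicle replicate 1 (adjusted p = 0.0732), without small follicle replicate 1 (0.0916), without small follicle replicate 2 (0.102) and with no filter (0.0756), all by limma.

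In the list of cross-linking and fibril assembly, 11 of 18 genes tested had values higher and 7 lower, with 0 called higher, 1 called lower and a median of 0.19. After LOXL4 the smallest p values belonged to small proteoglycans that bind collagen fibrils. BGN had 456, 625 and 357 FPKM in large follicles, against 333 and 201 FPKM in small follicles (difference 0.85 ± 0.31, limma adjusted p = 0.342). PRELP and FMOD had differences of 0.56 ± 0.23 and 0.52 ± 0.23 (limma adjusted p = 0.417 and 0.483). None of these 3 overlapped between the groups, but they were named for their small p, so this is no separate evidence. Over the list, 7 of the 18 genes tested did not overlap, 38.9%, beside 26.1% of all genes tested.

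The list of chain folding and modification, which holds the endoplasmic reticulum enzymes and chaperones of collagen, had 11 values higher and 13 lower among 24 tested, a median of -0.04, 0 calls by limma, 0 at an unadjusted p under 0.05 and 0 calls by voom. P3H3, a prolyl 3-hydroxylase family member, had the smallest p, at 66.9, 55.1 and 50.2 FPKM in large follicles, against 39.5 and 42.6 FPKM in small follicles (difference 0.46 ± 0.21, limma adjusted p = 0.483). P4HA1, a subunit of prolyl 4-hydroxylase, had a difference of -0.42 ± 0.23, SEC23A, of the vesicle coat that exports collagen, -0.50 ± 0.29, and MIA3, which loads collagen into those vesicles, -0.39 ± 0.24. Their limma adjusted p values were 0.606, 0.631 and 0.670. LEPREL2, an older symbol of P3H3, was not found as a row of its own.

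Propeptide cleavage had 3 values higher and 2 lower among 5 tested, with a median of 0.07 and 0 calls by limma or voom. An unadjusted limma p under 0.05 was reached by 3 of the 5, beside 10.4% of all genes tested. PCOLCE2, an enhancer of C-propeptide cleavage, had 2.99, 3.07 and 1.07 FPKM in large follicles, against 6.20 and 8.34 FPKM in small follicles (difference -1.35 ± 0.36, limma adjusted p = 0.159). BMP1, the C-proteinase itself, had 165, 111 and 154 FPKM in large follicles, against 191 and 305 FPKM in small follicles (difference -0.77 ± 0.27, limma adjusted p = 0.317). ADAMTS3, an N-proteinase, had 6.08, 3.18 and 5.19 FPKM in large follicles, against 1.35 and 2.23 FPKM in small follicles (difference 1.04 ± 0.33, limma adjusted p = 0.255). All 3 were without overlap, but they were named for their small p, so this is no separate evidence. Over the list, 3 of the 5 genes tested did not overlap, 60%, beside 26.1% of all genes tested. ADAMTS2, another N-proteinase, overlapped at 0.10 ± 0.24 (limma adjusted p = 0.938). PCOLCE was listed at 0 in all 5 libraries.

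Collagen breakdown had 11 values higher and 4 lower among 15 tested, with a median of 0.36 and 0 calls by limma or voom. An unadjusted limma p under 0.05 was reached by 5 of the 15, beside 10.4% of all genes tested. MMP2, a gelatinase, had 313, 300.2 and 377 FPKM in large follicles, against 199 and 191 FPKM in small follicles (difference 0.75 ± 0.21, limma adjusted p = 0.186). MMP19, a proteinase of basement membrane proteins, had 16.97, 24.6 and 15.9 FPKM in large follicles, against 8.59 and 10.005 FPKM in small follicles (difference 0.95 ± 0.26, limma adjusted p = 0.167). MMP9, the other gelatinase, and TIMP1, an inhibitor of these enzymes, had differences of 1.60 ± 0.54 and 1.10 ± 0.40 (limma adjusted p = 0.301 and 0.343). MMP9 had 3.06, 10.3 and 17.4 FPKM in large follicles, against 2.46 and 1.82 in small follicles. Its large follicle replicate 1 thus lay close to the small follicle libraries. TIMP1 had 1050, 1697 and 585 FPKM in large follicles, against 494 and 453 in small follicles. None of the 4 overlapped between the groups, but they were named for their small p, so this is no separate evidence. Over the list, 8 of the 15 genes tested did not overlap, 53.3%, beside 26.1% of all genes tested. Collagen receptors had 4 values higher and 5 lower among 9 tested, with a median of -0.12 and 0 calls by limma or voom. An unadjusted limma p under 0.05 was reached by 1 of the 9, beside 10.4% of all genes tested. DDR1, a tyrosine kinase receptor of collagen, had 18.9, 22.8 and 30.04 FPKM in large follicles, against 29.2 and 46.2 FPKM in small follicles (difference -0.62 ± 0.27, limma adjusted p = 0.471). CD44, ITGA10 and ADGRG6 followed with differences of 0.67 ± 0.33, 0.32 ± 0.30 and -0.24 ± 0.28 (limma adjusted p = 0.549, 0.812 and 0.864).

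**Figure D5:**
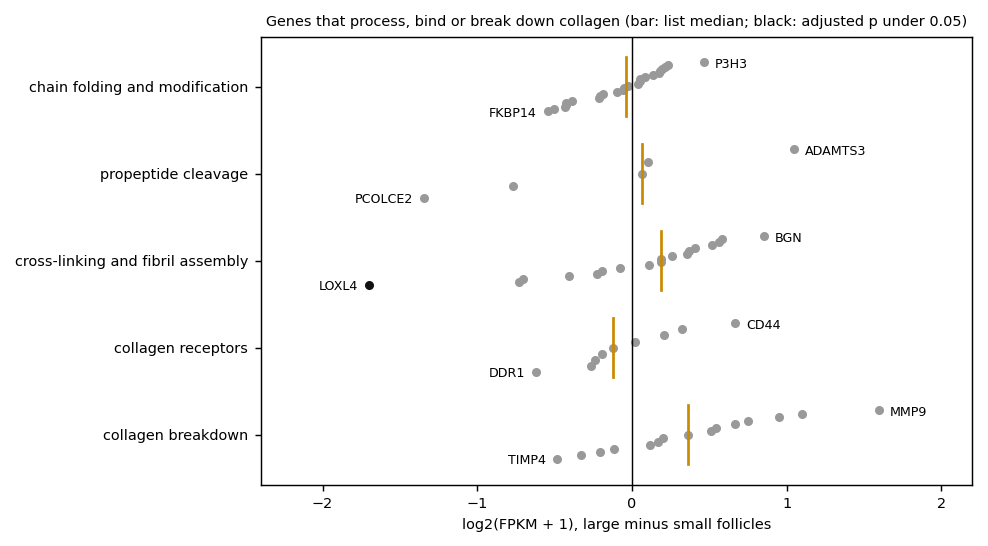
Difference on the log2(FPKM + 1) scale, large minus small follicles, of the genes tested in 5 lists of collagen processing, receptors and breakdown, with 1 point per gene, the list median as a bar and the lowest and highest gene of each list named. LOXL4 at -1.70 is the one called gene (black), and the medians run from -0.12 for receptors to 0.36 for breakdown.

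Cell type markers were described by lists in which at most 1 gene was called by limma, and several lists held members in both directions. All 9 myeloid markers had values higher in large follicles, with a summed FPKM of 226 to 328 in large follicles, against 116 and 131 in small follicles. Of these, LYZ was called higher (difference 2.74 ± 0.21, limma adjusted p = 0.000551). Of 9 theca markers 6 had values higher and 3 lower. Their sum was 2079 to 4431 FPKM in large follicles, against 937 and 1231 in small follicles, and rested mostly on CYP17A1, which was called higher (limma adjusted p = 0.0121), and INSL3. The hedgehog pathway genes of that list, GLI1, PTCH1 and HHIP, had differences of -1.02, -0.63 and -0.55 (limma adjusted p = 0.235, 0.704 and 0.583). HHIP passed the filter only through the small follicle libraries, where it is higher.

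Of 11 granulosa markers 4 had values higher and 7 lower, 2 and 6 of them without overlap, beside 10.9% and 15.2% of all genes tested. Their sum overlapped, at 6825 to 15946 FPKM in large follicles, against 5126 and 7769 in small follicles. INHA alone had 4474, 11739 and 6453 FPKM in large follicles, against 2876 and 3515 FPKM in small follicles. INHBB was called lower (limma adjusted p = 0.0237), while CYP19A3 and INHA had differences of 1.65 and 1.13, and FSHR and HSD17B1 of -1.75 and -1.29 (limma adjusted p = 0.181, 0.443, 0.201 and 0.0956). Of 9 smooth muscle and pericyte markers 4 had values higher and 5 lower, with 0 called by limma or voom. Their sum of 3933 to 4866 FPKM in large follicles, against 3432 and 3504 in small follicles, rested mostly on ACTA2 and TAGLN. An unadjusted limma p under 0.05 was reached by 3 of these 9, beside 10.4% of all genes tested. These 3, MYH11, RGS5 and NOTCH3, were all lower in value, at -0.77, -0.81 and -0.56 (limma adjusted p = 0.309, 0.426 and 0.455).

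Fibroblast and stroma markers had 9 values higher and 6 lower among 15 tested, with MFAP4 called higher (difference 1.75 ± 0.21, limma adjusted p = 0.00641). Their sum overlapped, at 1073 to 1501 FPKM in large follicles, against 1094 and 1178 in small follicles. Endothelial markers had 9 values higher and 3 lower among 12 tested, summing to 477 to 577 FPKM in large follicles, against 438 and 439 in small follicles. Oocyte markers had 4 higher and 2 lower among 6, summing to 47.2 to 63.8 in large follicles, against 27.8 and 39.8 in small follicles. The difference in this sum rested mostly on ZP3 and ZP4. ZP3 overlapped, at 30.0, 6.88 and 22.4 FPKM in large follicles, against 3.41 and 12.2 in small follicles. ZP4 had 13.1 to 14.9 FPKM in large follicles, against 3.63 and 6.05 in small follicles. BMP15 and ZP2 were the lower ones. Surface epithelium markers had 3 higher and 1 lower among 4, and their sums overlapped at 11.3 to 18.9 in large follicles, against 14.3 and 19.04 in small follicles. KRT19 and KRT7 of that list passed the filter only through large follicles, and ZP2 of the oocyte list only through small follicles. In each case this was the group with the higher values. The endothelial, oocyte and surface epithelium lists had 0 calls by limma or voom. Of their 12, 6 and 4 genes tested, 1, 1 and 3 had an unadjusted limma p under 0.05, beside 10.4% of all genes tested. No marker found in the files was at 0 in all libraries. The part of these cell types in the collagen differences was not tested.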

How the data were processed

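mRNA of 3 large and 2 small follicle libraries was measured by RNA sequencing, with groups and replicate numbers taken from the sample titles. The deposited FPKM values were computed by the authors, 1 file per library. The submitters' processing notes name the build Sscrofa11.1 and, without roles, featureCounts 1.5.0-p3, HISAT2 2.0.5, StringTie 1.3.3, Trimmomatic 0.38 and FastQC 0.11.4. Members and lists were chosen with earlier results of these data known.

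Genes with an FPKM of at least 1 in at least 2 libraries were tested with limma 3.58.1 in R 4.3.3 on log2(FPKM + 1), with a mean-variance trend and Benjamini-Hochberg adjustment over 13087 genes; the fit was tested on simulated data. Values per class, ratios and exact or Wilson intervals used Python 3.11.15, pandas 2.3.3 and scipy 1.17.1. Fragments were worked back from the FPKM steps. All of the 23353 genes above 0 gave whole numbers within 0.001 of a fragment, 49.5% of them with the listed gene length and the rest with a shorter length found by search. They served for counting intervals and for a limma voom fit as an alternative. No sequence is shown, and no genome was used.

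Genes named with a value in every library were collagen genes that had a mean FPKM of at least 5, were called, or had an unadjusted p under 0.05, 24 in all; other members were named with their levels. From each pathway list the called genes and up to 4 with the smallest p were named. COL6A6, COL28A1, LOC100517188, the 3 other rows described as collagen chains, and the genes named from marker lists were chosen after their values were seen. Alternatives covered the pseudocount, filter, scaling, replicate block, trend, library weights, biotype, voom and leaving out each library. Replicate numbers were not used to pair libraries in the main fit, and the sample titles state no pairing.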

Additional observations from a re-analysis of the deposited data

How the results depend on the processing

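Of 17 alternatives, 11 kept the count of 1 called collagen gene. Median-of-ratios scaling, quantile normalization and library weights each called 2, adding COL6A5, and a mean FPKM of at least 5, which removes COL22A1 from the fit, called 0. Leaving out 1 library in turn gave 0 to 2. The pathway lists gave 1 called gene, 0 with no filter, 2 (LOXL4 and ADAMTS3) under median-of-ratios scaling and again 2 under quantile normalization, 2 with the replicate block (LOXL4 and TIMP1), and 0 to 2 without single libraries. Over all genes, the 128 calls became 32 with no filter, 41 with a mean FPKM of at least 5, 201 with quantile normalization, 210 under median-of-ratios scaling, 82 among protein-coding genes only, 70 with voom, and 29 to 268 without single libraries. The replicate block gave 157 calls over all genes and 1 collagen gene, COL22A1. Same-numbered libraries deviated with correlations of -0.0015 and -0.45 over genes. Deviations in a group of 2 libraries mirror each other, and those in groups of 2 and 3 libraries are not independent. These correlations therefore cannot tell whether same-numbered libraries were paired.

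The median of the collagen genes, 0.12, was below 0 with a common FPKM sum (-0.0058, beside -0.19 for all genes) and without small follicle replicate 1 (-0.03, beside -0.26). Its highest value was 0.32, without large follicle replicate 1, beside -0.105 for all genes. Of 405 pairs of a named collagen gene and an alternative, 367 kept sign and side of the threshold, 33 changed sign, 4 gained the call (COL6A5) and 1 lost it (COL22A1). With quantile normalization COL1A1 was at -0.099, COL3A1 at -0.25, COL5A2 at -0.0075, COL27A1 at 0.072 and COL5A3 at 0.062. With a common FPKM sum COL3A1 was at -0.0058, COL5A2 at -0.094, COL18A1 at -0.037 and COL15A1 at -0.049. Median-of-ratios scaling put COL27A1 at 0.039 and COL5A3 at 0.032, and library weights put COL1A1 at -0.058, COL27A1 at 0.095 and COL15A1 at -0.10. With the replicate block COL5A2 was at -0.12 and COL15A1 at -0.028. Leaving out single libraries gave -0.15 to 0.44 for COL1A1, -0.069 to 0.31 for COL3A1, -0.22 to 0.28 for COL5A2, -0.37 to 0.29 for COL27A1, -0.28 to 0.18 for COL5A3, -0.029 to 0.46 for COL4A5, -0.075 to 0.25 for COL18A1, -0.17 to 0.33 for COL15A1, -0.20 to 1.15 for COL13A1 and -0.47 to 0.18 for COL26A1. The cause was not tested. With 1 small follicle library left, it is assumed to vary like the large follicle libraries. At these totals, levels of a few fragments, as in COL6A6, COL19A1 and COL28A1, limit what can be told.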
